A study of Ovis aries with 8 samples.

Results

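Glucose enters cells through the SLC2A family of transporters, and hexokinases trap it by adding a phosphate. Glycolysis then breaks it down through a chain of enzymes that includes glyceraldehyde-3-phosphate dehydrogenase, and in low oxygen this route can supply ATP without mitochondrial respiration. VDUP1, now usually called TXNIP, is an arrestin-like protein that binds thioredoxin and restrains glucose uptake, and its transcript is known to respond quickly to glucose and to energy stress. The 4 genes described here are GAPDH, HK1 (hexokinase 1), SLC2A3 (the transporter GLUT3, abundant in neurons) and VDUP1. The genes were chosen with earlier results of these data known, and their probes by name. Every probe whose gene name or description on the array names any of them was taken. This gave 10 probes of 15008 and 4 genes of the 845 that could be named.

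The RNA came from pituitaries of chronically catheterized late-gestation fetal sheep (Ovis aries), each the only fetus used from a twin pregnancy. In the hypoxia group (n = 4), nitrogen was passed into the trachea of the awake ewe for 30 min, and the fetus was killed 60 min after onset, so that air had been restored before sampling. The normoxia group (n = 4) was handled on the same schedule without nitrogen. There were 3 males and 1 female per group. Gestational age ran from 129 to 132 days in hypoxia and from 123 to 129 days in normoxia, so age and condition moved together. Whole pituitaries, anterior and posterior lobe together, were hybridised to a 1-colour Agilent array of 60-base probes, and values are log2 of the spot intensity after background correction and quantile normalization. Slide 1, scanned as a unit, carried hypoxia 1 and 3 and normoxia 1 and 2, and slide 2 carried hypoxia 2 and 4 and normoxia 3 and 4.

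The hypoxia arrays were dimmer before normalization, with median spot signals of 229.5 to 294.9 against 309.1 to 380.5 in normoxia. These ranges did not overlap, so brightness and condition moved together, and a fit with both can hardly separate them. All 10 anterior lobe genes named on the array were bright enough to be tested, but so were 13036 of its 15008 probes. That count therefore says little about the tissue. The levels say more, since the hormone genes POMC and PRL were very bright. Their mean log2 values were 18.85 and 18.94 in hypoxia and 18.83 and 18.97 in normoxia, as a pituitary label would have it. Of the 10 genes 1 was called, FSHB, higher after hypoxia by 0.46. Of the other cell types, 2 posterior lobe and glia genes had a median difference of 0.29. OXT was called higher at 0.39, but not at its other probe (0.24), and GFAP (0.18) was not called. The 2 red cell genes had a median of 0.66, and their mean level ran from 10.72 to 11.48 in hypoxia and from 9.24 to 11.33 in normoxia. The 6 leukocyte genes had a median of -0.35, with LYZ and CTSS called lower. CD3E (-0.46), ITGAM (-0.23), CD14 (0.04) and CD3D (0.01) were not called. The 3 endothelial genes had a median of 0.04 and the muscle gene MB differed by 0.03. In whole tissue, more cells of a type and more RNA per cell cannot be told apart, and the part of these markers in the results below was not tested.

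What each probe can capture matters here, since the 5 GAPDH probes do not carry the same strand. In this labelling the Cy3 cRNA is complementary to the mRNA, and a probe written in the mRNA's own sense captures it. The following 3 GAPDH probes are shown because the results differ by orientation. The sequences are those of the array files, 5′ to 3′, and capitals mark the 20 bases that A_70_P016402 and A_70_P041487 share in opposite orientation.
A_70_P024456: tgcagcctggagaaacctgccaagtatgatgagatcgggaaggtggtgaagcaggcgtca
A_70_P016402: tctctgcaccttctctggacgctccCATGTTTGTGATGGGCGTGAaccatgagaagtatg
A_70_P041487: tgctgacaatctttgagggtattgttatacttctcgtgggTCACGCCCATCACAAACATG

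A_70_P024456 and A_70_P016402 were drawn, as written, from separate partial coding sequences of the sheep GAPDH mRNA, and A_70_P016401 repeats 59 bases of the latter. Turned over, A_70_P041487 aligned with A_70_P016402 along 35 bases, of which 32 were identical and 3 differed, and as written it had no overlap with it. A_70_P041486 shared 57 bases with A_70_P041487 and aligned the same way, along 38 bases with 3 differences. These 2 reverse probes, drawn from an expressed sequence tag (a single read of a cDNA clone), are the ones to which the array gives the name GAPDH, and the other 3 are named through their descriptions. A probe in reverse orientation would pair with cRNA of a transcript read from the other strand rather than with that of the GAPDH mRNA, and which RNA it captured was not tested. No other probe on the array shared 25 or more bases in a row with any of the 10. GAPDH has many processed copies in mammalian genomes, and whether such a copy contributes to any of these probes was not tested.

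Each of the other members was covered by probes from 1 target sequence. HK1 had a single probe, printed whole because it alone carries that gene's result. For SLC2A3 and VDUP1 the first 30 bases of each probe identify it. The SLC2A3 probes began at bases 3584 and 3740 of their target sequence, and the 2 probes of each gene shared no stretch with each other. The HK1 and VDUP1 probes were drawn from expressed sequence tags and rest on the array's name for their gene. They were not compared with a genome or protein sequence, and their strand was not tested.
HK1 A_70_P045126: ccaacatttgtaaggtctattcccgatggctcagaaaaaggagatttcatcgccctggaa
SLC2A3 A_70_P051106: ggaatttttcccagttctcagtgaccaggt
SLC2A3 A_70_P051107: attttggttctaagttctcaccattccctc
VDUP1 A_70_P001432: gatgtaagctaaaactggtctactatgtct
VDUP1 A_70_P001431: tacagaattctgcatttctgacactgatca

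All 10 probes were well above background on the 8 arrays and none was saturated. At an unadjusted limma p of 0.05 or below, 5 of the 10 were called higher after hypoxia and 0 lower, beside 18.4% of the 13036 tested probes called in either direction, 7.46% higher and 11.0% lower. Those 5 were both VDUP1 probes, the HK1 probe and both reverse GAPDH probes. The calls at the reverse probes are not shown to concern the GAPDH mRNA. Probes of the same gene are not independent measures, and the 2 reverse GAPDH probes share 57 bases. The members were chosen with earlier results of these data known, so the counts are description only. Both SLC2A3 probes and the 3 GAPDH probes in mRNA orientation missed the threshold. In 4 of the 10 probes every hypoxia array lay above every normoxia array, beside 4.23% of all tested probes. After Benjamini-Hochberg adjustment over all tested probes, 0 of the 10 had an adjusted p under 0.05, against 3 on the whole array in limma (0.023%).

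**Figure D1:**
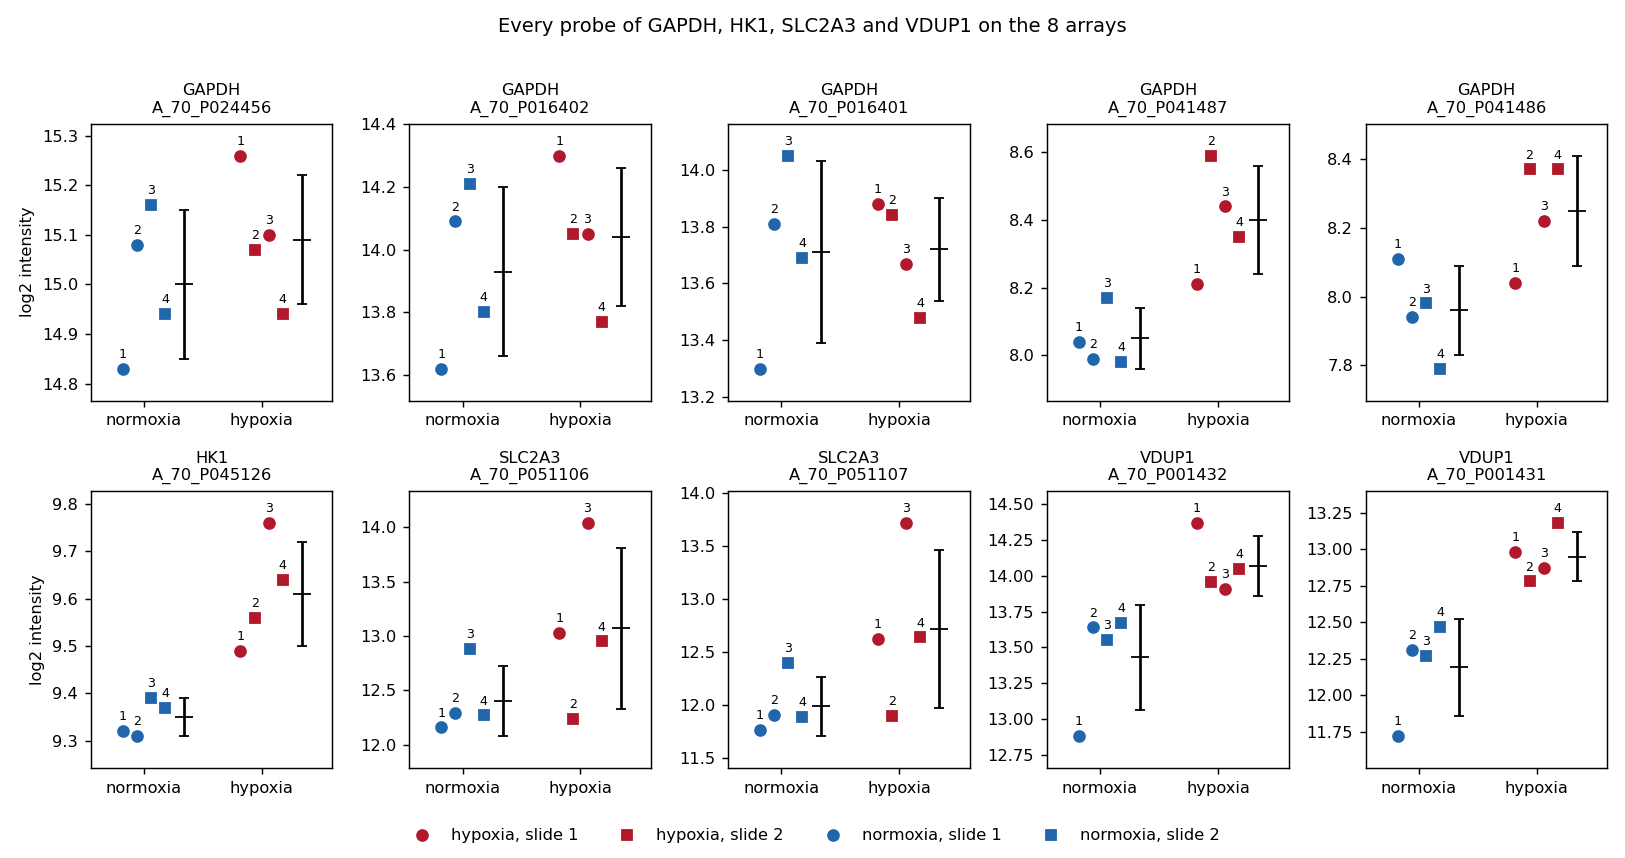
Log2 intensity of each of the 10 probes on the 8 arrays, with its own axis for each probe. Numbers are replicates, circles and squares are slides 1 and 2, and the black bar is the mean ± SD (n = 4); the groups are apart for HK1, both VDUP1 probes and GAPDH A_70_P041487.

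VDUP1, the inhibitor of glucose uptake, was higher after hypoxia at both of its probes. At A_70_P001432 the log2 values in hypoxia were 14.37, 13.96, 13.91 and 14.05, and in normoxia 12.88, 13.64, 13.55 and 13.67. The groups did not overlap, and normoxia 1 stood well below the other 3 normoxia arrays. The difference was 0.64 ± 0.18 (SE, n = 4 per group, limma adjusted p = 0.121), a fold of 1.56 with a 95% interval of 1.17 to 2.07. At A_70_P001431 the values were 12.98, 12.78, 12.87 and 13.18 in hypoxia and 11.72, 12.31, 12.27 and 12.47 in normoxia, again apart. Its difference was 0.76 ± 0.16 (SE, limma adjusted p = 0.085), and 99.6% of all tested probes had a smaller difference. The exact two-sided permutation test of the 8 arrays gave p = 0.0286 for either probe, the smallest that 4 against 4 allows.

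The VDUP1 difference was present within each slide. At A_70_P001432 it was 0.88 ± 0.29 (SE) on slide 1 and 0.40 ± 0.12 on slide 2, each from 2 arrays against 2 and each called. With gestational age in the fit it was 0.58 and not called, whereas A_70_P001431 kept a difference of 0.76 and its call. With array brightness in the fit the probes differed by 0.42 and 0.38, and neither was called. Without normoxia 1 it was 0.45 and still called. Of 23 genes listed as partners of VDUP1, 2 could be measured and neither was called. Thioredoxin (TXN), which VDUP1 binds, differed by -0.10 ± 0.15 (SE, limma adjusted p = 0.783). PRKAA2, a catalytic subunit of the AMP-activated kinase that phosphorylates VDUP1, differed by 0.02 ± 0.07 (SE, limma adjusted p = 0.907). Both PRKAA2 probes were dim, with spot signals of 67.7 to 92.7 at this one and 66.5 to 89.5 at the other. Neither was well above background on every array, so a change in the PRKAA2 transcript could be missed there.

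HK1, the first enzyme of the pathway, was higher by a smaller amount but with little spread between animals. Its log2 values were 9.49, 9.56, 9.76 and 9.64 in hypoxia and 9.32, 9.31, 9.39 and 9.37 in normoxia. The lowest hypoxia array lay above the highest normoxia array. The difference was 0.27 ± 0.08 (SE, n = 4 per group, limma adjusted p = 0.127, exact permutation p = 0.0286), a fold of 1.2 with a 95% interval of 1.07 to 1.36. On slide 1 it was 0.31 and on slide 2 0.23, and neither was called alone. With array brightness in the fit it was 0.26 ± 0.14 (SE) and not called, and with gestational age 0.31 ± 0.13 (SE) and called.

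SLC2A3, the transporter, had differences of a size close to those of VDUP1, but its hypoxia arrays were more scattered, with an SD of 0.74 against 0.21 at the VDUP1 probe A_70_P001432 (n = 4 each). At A_70_P051106 the values were 13.03, 12.24, 14.04 and 12.95 in hypoxia and 12.16, 12.29, 12.88 and 12.27 in normoxia. Hypoxia 3 stood highest, hypoxia 2 lay within the normoxia values, and normoxia 3 came close to hypoxia 1 and 4. The difference was 0.66 ± 0.33 (SE, n = 4 per group, limma adjusted p = 0.32, exact permutation p = 0.114), with a 95% interval from -0.08 to 1.41. A_70_P051107 read 12.63, 11.90, 13.72 and 12.64 in hypoxia and 11.77, 11.91, 12.40 and 11.89 in normoxia, a difference of 0.73 ± 0.33 (SE, limma adjusted p = 0.276, exact permutation p = 0.0857). Its unadjusted limma p was 0.0522 and that of A_70_P051106 0.074, just past the threshold in both cases. The pair of probes moved as one, with a correlation of 1.0 between their deviations from the group means over 8 arrays.

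The SLC2A3 difference was larger on slide 1 than on slide 2. At A_70_P051106 it was 1.31 ± 0.33 on slide 1 (SE, 2 against 2 arrays) and called, and on slide 2 it was 0.02 ± 0.29. The limma test of that contrast, slide 2 minus slide 1, gave -1.29 with an unadjusted p under the threshold. A_70_P051107 gave 1.33 on slide 1 and 0.12 on slide 2, a contrast of -1.21 that missed the threshold, and no member probe had an adjusted p under 0.658 for it. Without hypoxia 3 the difference at A_70_P051106 was 0.34 and not called. It was called without hypoxia 2, at 0.94, and without normoxia 3, at 0.82.

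**Figure D2:**
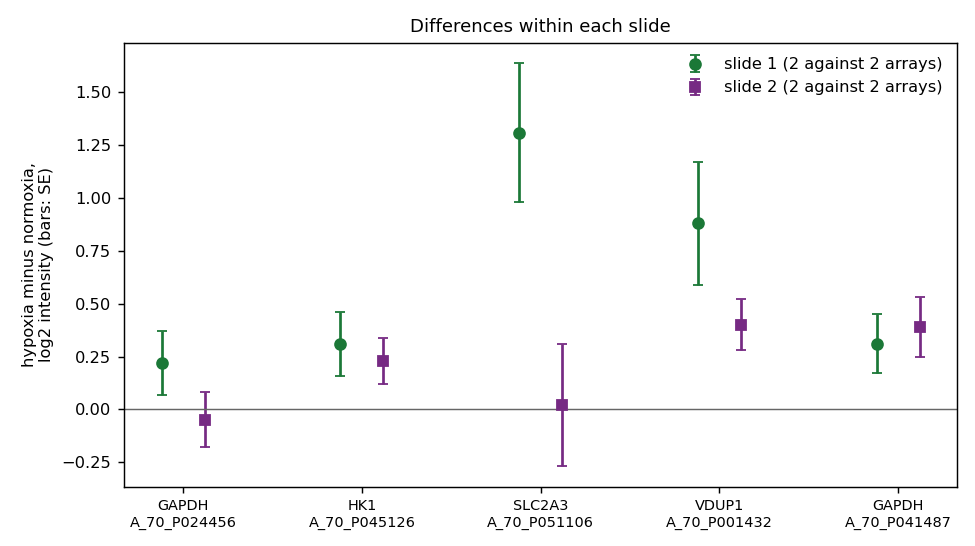
Hypoxia minus normoxia in log2 intensity within slide 1 (circles) and slide 2 (squares) for 1 probe of each gene and for the reverse GAPDH probe A_70_P041487; bars are the SE of a fit on that slide's 4 arrays. SLC2A3 goes from 1.31 to 0.02, while HK1, VDUP1 and A_70_P041487 lie above 0 on both slides.

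GAPDH is the enzyme of the middle of glycolysis. Among the probes assigned to it, the 2 reverse ones were called and the 3 in mRNA orientation were not. Which RNA the reverse probes captured was not tested, so their calls are not shown to concern the GAPDH mRNA. The reverse probes were also far dimmer, with spot signals of 246 to 342 against 8940 to 39400. A difference between the orientations was not tested, and the 95% intervals of A_70_P016402 (-0.23 to 0.46) and A_70_P041487 (0.14 to 0.57) overlapped. A_70_P024456, in mRNA orientation, read 15.26, 15.07, 15.10 and 14.94 in hypoxia and 14.83, 15.08, 15.16 and 14.94 in normoxia. The groups lay over each other, and the difference was 0.09 ± 0.10 (SE, n = 4 per group, limma adjusted p = 0.683, exact permutation p = 0.429), with a 95% interval from -0.14 to 0.31. A_70_P016402 differed by 0.11 ± 0.15 (SE, exact permutation p = 0.571) and A_70_P016401 by 0.01 ± 0.16 (SE, exact permutation p = 0.971). Their groups overlapped too, so a GAPDH change could not be shown at any probe of this orientation.

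A_70_P041487, in reverse orientation, read 8.21, 8.59, 8.44 and 8.35 in hypoxia and 8.04, 7.99, 8.17 and 7.98 in normoxia. No hypoxia array fell to the normoxia values, and the difference was 0.35 ± 0.10 (SE, n = 4 per group, limma adjusted p = 0.115, exact permutation p = 0.0286), a fold of 1.28. A_70_P041486 read 8.04, 8.37, 8.22 and 8.37 in hypoxia and 8.11, 7.94, 7.98 and 7.79 in normoxia, a difference of 0.30 ± 0.10 (SE, limma adjusted p = 0.175, exact permutation p = 0.0571). There hypoxia 1 lay below normoxia 1. Over the 8 arrays the deviations of A_70_P024456 from its group means correlated at 0.99 with those of A_70_P016402 and at 0.90 with those of A_70_P016401, but at -0.05 with A_70_P041487 and -0.57 with A_70_P041486. The 2 reverse probes correlated with each other at 0.62. These correlations describe probes of which some share most of their bases.

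**Figure D3:**
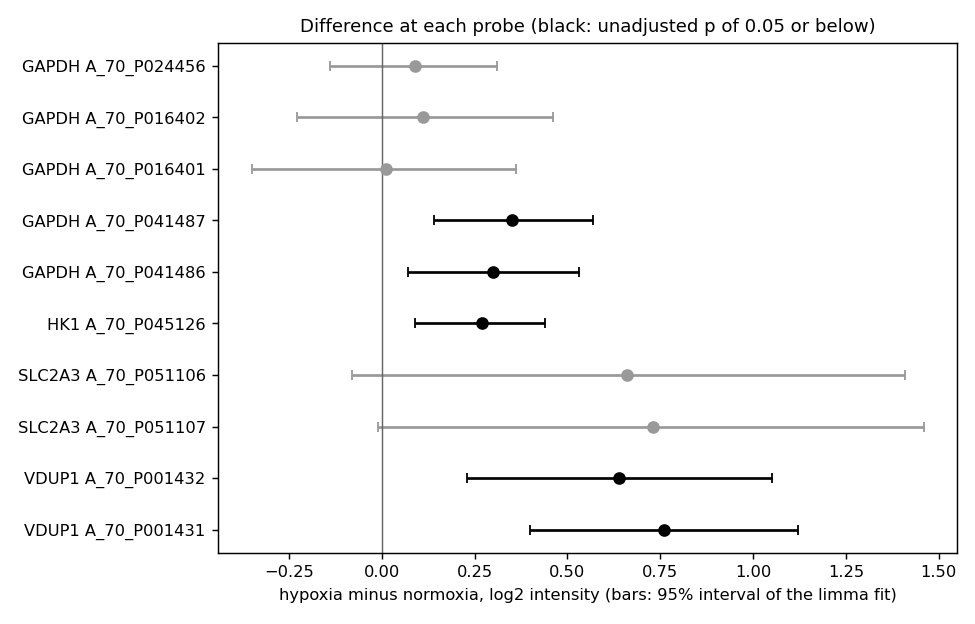
Hypoxia minus normoxia in log2 intensity for each probe, with the 95% interval of the limma fit; black marks an unadjusted p of 0.05 or below. The 3 GAPDH probes in mRNA orientation lie from 0.01 to 0.11 and the 2 reverse probes at 0.30 and 0.35.

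The call at A_70_P024456 also moved with the scaling of the arrays, and those at the other GAPDH probes in mRNA orientation did not. With each array scaled to its 75th percentile in place of quantile normalization, A_70_P024456 differed by 0.29, and from the scanner's processed signal by 0.32, and both were called (limma adjusted p = 0.264 and adjusted p = 0.246). Under those scalings A_70_P016402 differed by 0.18 and 0.17 and A_70_P016401 by 0.10 in both, and neither was called. With cyclic loess A_70_P024456 differed by 0.18 and was not called. A measure that is set within an array is the distance to other transcripts, for which 7 genes often used as references were averaged: B2M, PPIA, TBP, UBB, RPL13A, RPL32 and EEF1A1. By the quantile scale all 7 differed downwards, with a median of -0.19, and PPIA and RPL32 were called lower. That count takes the brightest probe of each gene, and EEF1A1 differed by -0.18 there but by 0.20 and 0.14 at its other probes. With the 75th percentile scale 4 of the 7 differed upwards, with a median of 0.03, and with the processed signal 3 did. Their own direction thus depends on the scaling and, for EEF1A1, on the probe.

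Relative to the mean of these 7 genes on the same array, A_70_P024456 stood at 1.01, 0.97, 0.91 and 0.77 in hypoxia and at 0.46, 0.68, 0.78 and 0.42 in normoxia. Only normoxia 3 reached into the hypoxia values. The difference was 0.33 (exact permutation p = 0.0571), and for A_70_P016402 and A_70_P016401 it was 0.36 and 0.25 (exact permutation p = 0.114 and 0.257). HK1 differed by 0.51 and the VDUP1 probes by 0.88 and 1.00, each with the groups apart (exact permutation p = 0.0286). SLC2A3 differed by 0.91 and 0.97 (exact permutation p = 0.0571 for either probe). All 10 probes were thus higher against this reference. That count was given beforehand, since all 10 differences were positive and all 7 reference genes differed downwards on the quantile scale. Where the groups were apart, the distance to the reference differed between them, and the values do not show which side moved. The hypoxia arrays were also dimmer before normalization, and whether that shifts this distance was not tested. The groups overlapped at both SLC2A3 probes and at the GAPDH probes in mRNA orientation.

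**Figure D4:**
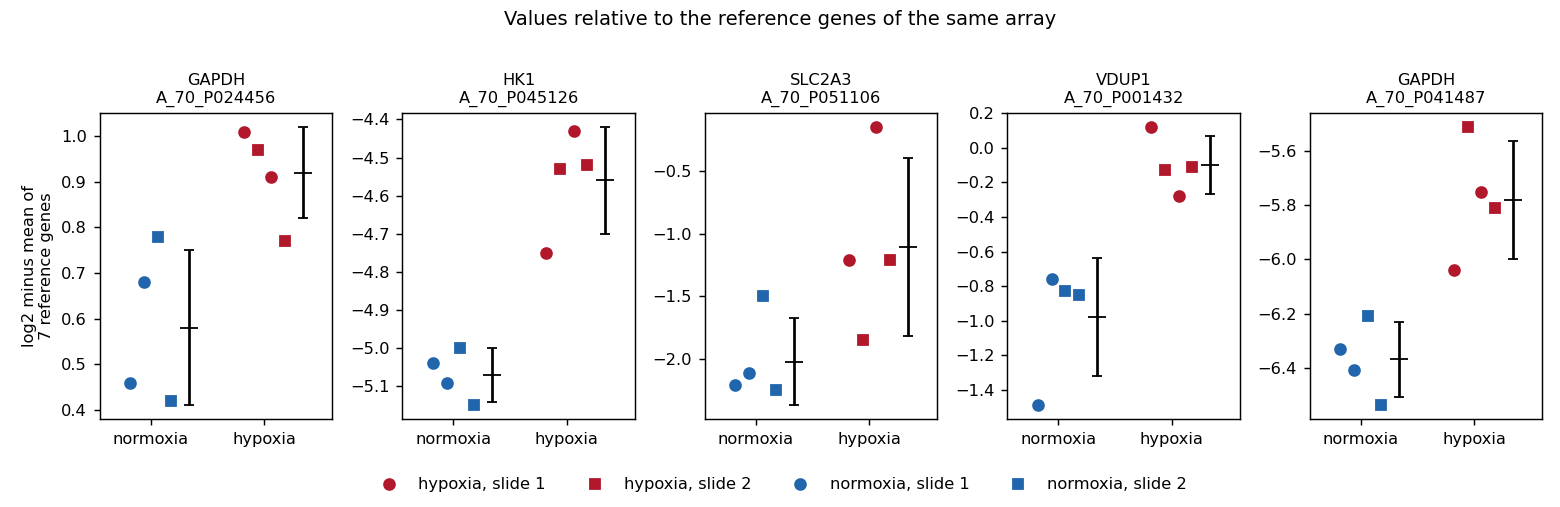
Log2 value minus the mean log2 value of 7 reference genes on the same array, for 1 probe of each gene and the reverse GAPDH probe A_70_P041487, by group; circles and squares are slides 1 and 2 and the black bar is the mean ± SD (n = 4). The groups are apart for HK1, VDUP1 and A_70_P041487 and overlap for GAPDH A_70_P024456 and SLC2A3.

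Across the 8 arrays, joint variation of the 4 genes as a block could not be shown. With the group means removed, the closest pair was HK1 with SLC2A3, at r = 0.72 (Spearman rho 0.50; exact permutation p = 0.184 and 0.304, adjusted p = 0.552 and 0.608 over 6 pairs, 8 arrays). Both were highest in hypoxia 3, and without that array r was 0.20. Without hypoxia 1 r was 0.95, and without both, the 2 arrays farthest from the median, it was 0.77 over 6 arrays. The value of r thus depended on which of these arrays were kept. It also moved with the scaling, to 0.59 with the processed signal and 0.82 with the 75th percentile (exact permutation p = 0.16 and 0.0469, not adjusted for the 6 pairs). GAPDH with VDUP1 gave r = 0.66 (rho 0.60; exact permutation p = 0.115 and 0.172, adjusted p = 0.552 and 0.516), which dropped to 0.24 without hypoxia 1 and normoxia 1, so it rested on those arrays. The other 4 pairs lay between r = -0.27 and 0.33, and with quantile normalization no pair had an adjusted p under 0.516.

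Of 760 other named genes, those whose deviations lay closest to GAPDH A_70_P024456 were AHSP (r = 0.95), KDR (0.93) and PLAU (0.92), over 8 arrays. AHSP, the chaperone of alpha globin in red cells, read 8.66, 8.05, 7.99 and 7.23 in hypoxia and 6.42, 8.12, 7.93 and 6.70 in normoxia. It was lowest in normoxia 1 and 4, where GAPDH was also low. HBB, the other red cell gene tested, read 13.61, 14.37, 14.98 and 14.22 in hypoxia and 12.07, 14.54, 14.38 and 13.70 in normoxia. Among normoxia arrays HBB too was lowest in 1 and 4. Among hypoxia arrays it was lowest in hypoxia 1, where AHSP and GAPDH were highest, and its other probe was lowest in hypoxia 3 (10.74). For HK1 the closest were NOX1 (0.95), ST3GAL4 (0.94) and the immediate-early gene JUNB (0.93). For SLC2A3 they were SERPINF1 (0.97), PTGS2 (0.94) and HPCAL1 (0.94), and for VDUP1 the mitotic kinase CDK1 (0.98), the mitochondrial glycerol phosphate dehydrogenase GPD2 (0.98) and EEF1A1 (0.97). These are the top of 760 correlations over 8 arrays that share normalization, and carry no test.

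The rest of the pathway was sparsely represented. Of 79 other genes listed for glucose transport, glycolysis, lactate handling and glucose storage, 20 were named on the array and 18 could be tested. By their value 10 were higher and 8 lower, with a median of 0.05. The median over all tested probes was -0.0049. The limma fit called 4 of the 18 higher, against 7.46% of all probes, and 0 lower, and 0 had an adjusted p under 0.05. These counts take the brightest probe of each gene, and the other PCK1 probe was called lower. With gestational age or array brightness in the fit, 1 of the 18 was called.

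Among the transporters, SLC2A8 (GLUT8, largely intracellular) was called higher. It read 8.79, 9.13, 9.05 and 9.49 in hypoxia and 8.90, 8.77, 8.50 and 8.52 in normoxia, a difference of 0.44 ± 0.15 (SE, limma adjusted p = 0.175). Hypoxia 1 lay within the normoxia values, and its other probe gave 0.33 and was not called. SLC2A1, the widespread transporter GLUT1, differed by 0.21 ± 0.16 (SE) and was not called. Hypoxia 2 read 8.96, below all normoxia arrays, and the other 3 hypoxia arrays 9.65 to 9.73, above them. Hypoxia 2 was thus the lowest hypoxia array for both SLC2A1 and SLC2A3. SLC2A2, of liver and beta cells, differed by 0.11, the insulin-responsive SLC2A4 by -0.14 and the fructose transporter SLC2A5 by -0.45, none of them called. SLC5A1, the sodium-coupled transporter of gut and kidney, was too dim to be tested.

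None of the 5 glycolytic enzymes tested beside the members was called. Their differences were 0.21 for the aldolase ALDOA, 0.20 for LDHA, the lactate dehydrogenase subunit, and 0.14 for ENO3, the muscle enolase. They were -0.07 for PFKM, the muscle phosphofructokinase, and -0.10 for TPI1, triose phosphate isomerase. ALDOA read 13.32, 13.08, 13.03 and 13.05 in hypoxia against 12.90, 12.95, 13.11 and 12.68, with a 95% interval of -0.03 to 0.45 for the difference. The groups of ENO3 did not overlap (6.68 to 6.82 in hypoxia, 6.57 to 6.65 in normoxia), yet it was not called (limma adjusted p = 0.317). At its other probe they did overlap (6.49 to 6.85 and 6.34 to 6.59), and it was not called either. Both ENO3 probes were dim, with spot signals of 90.3 to 111 and 81.8 to 111. PKLR was too dim to be tested.

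SLC16A1 (MCT1), which carries lactate and pyruvate across the cell membrane, was the one gene of lactate handling on the array. It read 9.07, 9.06, 9.40 and 9.25 in hypoxia and 8.62, 8.87, 8.76 and 8.87 in normoxia. The groups did not overlap, and the difference was 0.41 ± 0.10 (SE, limma adjusted p = 0.101). Its other probe gave 0.12 ± 0.08 (SE) and was not called. That probe was dim, with spot signals of 83 to 114 against 445 to 637 at the called one.

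Of the 7 genes of storage and side paths, 2 were called higher. TALDO1, the transaldolase of the pentose phosphate path, differed by 0.20 ± 0.09 (SE, limma adjusted p = 0.254), and PYGB, the brain glycogen phosphorylase, by 0.31 ± 0.12 (SE, limma adjusted p = 0.22). With a single array left out, TALDO1 kept its call in 1 of 8 cases, without normoxia 2, and PYGB in 4 of 8, losing it without hypoxia 2, hypoxia 4, normoxia 2 or normoxia 4. PGD, a dehydrogenase of the pentose phosphate path, differed by -0.01, with a 95% interval of -0.31 to 0.29. The liver phosphorylase PYGL differed by -0.21 and the muscle form PYGM, well above background on 6 of the 8 arrays, by -0.03. Of the enzymes of glucose synthesis, G6PC differed by 0.00 and PCK1 by -0.11, neither of them called. That PCK1 probe was well above background on 2 of the 8 arrays. The other PCK1 probe, well above background on 3 of the 8, differed by -0.20 and was called lower (limma adjusted p = 0.189). Its groups did not overlap.

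**Figure D5:**
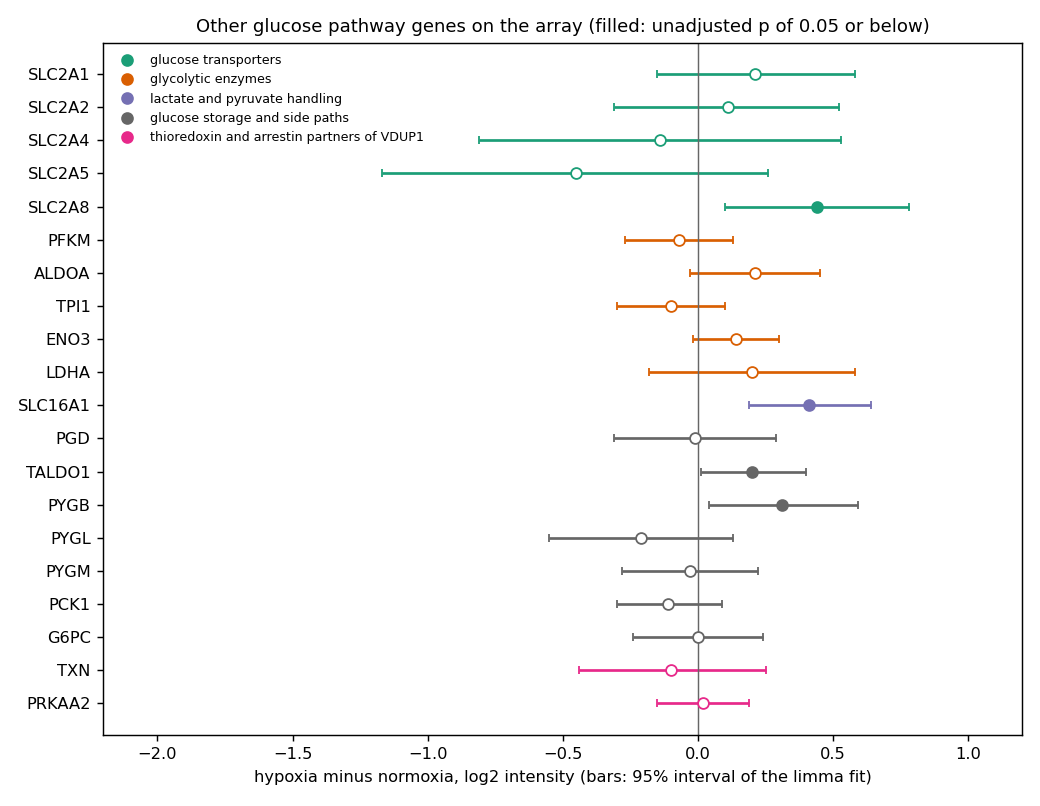
Hypoxia minus normoxia in log2 intensity, with the 95% interval of the limma fit, for the 18 tested genes of glucose transport, glycolysis, lactate handling and storage and for 2 partners of VDUP1; colours are the lists. Filled symbols, an unadjusted p of 0.05 or below, are SLC2A8, SLC16A1, TALDO1 and PYGB, all to the right of 0.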

How the data were processed

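The authors deposited, for each of the 8 arrays, the spot intensity read by Agilent Feature Extraction 10.1.1.1 (named in the submitters' processing notes), and log2 values made with limma. Array files give no chromosome position for these probes, and no genome was used here. One label names the hypothalamus as the RNA source, where all others name the pituitary. With R 4.3.3 and limma 3.58.1, the mean spot signal was corrected by normexp (offset 50), quantile normalized and averaged over spots of a probe. Outlier spots were left out. A probe was kept where 3 or more arrays exceeded 1.1 times the 95th percentile of negative controls, and kept probes were compared by lmFit and eBayes, without covariates, after the study's methods; a call is an unadjusted p of 0.05 or below. The steps were tested on simulated data. A gene's value is that of its probe with the highest mean. The genes named are the members, every other measured gene of the context lists and the 3 closest genes by deviation; any others were chosen after their values were seen. Some genes of the context lists are not reported here and not counted. Members and lists were chosen with earlier results of these data known. Permutation tests are two-sided. The number of arrays limits the precision. Alternatives were other background corrections, scalings, filters, covariates, blocks, weights and probes, and leaving out each array.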

Additional observations from a re-analysis of the deposited data

Results flagged for a closer look

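In 4 of the 60 groups of 4 arrays examined, 1 array stood far from the other 3 by Dixon's criterion, which chance meets in about 1 in 20 groups. They were normoxia 1 for VDUP1 A_70_P001432 (12.88, the others 13.55 to 13.67), hypoxia 2 for SLC2A1 (8.96, the others 9.65 to 9.73), normoxia 3 for LDHA (10.31, the others 9.63 to 9.68) and normoxia 1 for PGD (14.97, the others 14.39 to 14.47).

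The hypoxia difference changed between slides at 6 of the 30 probes tested here at an unadjusted p of 0.05 or below, beside 7.45% of the 13036 probes on the array. As slide 2 minus slide 1, the limma interaction was -1.29 for SLC2A3, -1.56 for SLC2A5, 0.71 for SLC2A8, 0.48 for PYGB, 0.43 for G6PC and 0.68 for TXN. For sex, with 1 female in each group, 0 of the 30 reached that p in limma, beside 6.57% of all probes.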

How the results depend on the processing

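Values are hypoxia minus normoxia in log2 intensity unless named otherwise, and the cause of each shift was not tested unless the alternative's construction shows it. With a single array left out, VDUP1 (0.45 to 0.72) and HK1 (0.22 to 0.31) were called in all 8 cases, GAPDH A_70_P024456 (0.03 to 0.14) in none, and SLC2A3 (0.34 to 0.94) in 2. The 4 other glucose genes called became 2 to 5, with 2 without hypoxia 4 or normoxia 4. GAPDH relative to the reference genes ran from 0.28 to 0.40, and at 0.40, without normoxia 3, its groups were apart. GAPDH was called at 0.32 with the scanner's processed signal, at 0.29 with 75th percentile scaling and at 0.35 when taken from the reverse probe A_70_P041487, an alternative added after seeing the data. It turned to -0.05 within slide 2 and -0.02 with gestational age in the fit. Relative to the reference genes it passed at 0.34 with an offset of 0 and at 0.35 with 75th percentile scaling. HK1 was not called within slide 1 (0.31) or slide 2 (0.23), where 2 arrays met 2, nor with array brightness in the fit (0.26). SLC2A3 was called within slide 1 (1.31). VDUP1 A_70_P001432 was not called with gestational age (0.58) or brightness (0.42), while A_70_P001431 was called with age (0.76) and not with brightness (0.38), and the other glucose genes called fell to 1 with either. TALDO1 lost its call under 17 of 27 alternatives and PYGB under 9 of 27. Over the whole array, calls went from 973 higher and 1430 lower to 373 and 445 with age, 263 and 288 with brightness, and 386 and 419 within slide 1.

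With the replicate number as a block, SLC2A3 kept its difference of 0.66 and passed the threshold (limma adjusted p = 0.206), and 2 other glucose genes were called. No other member's call changed, and whole-array calls went to 831 and 1291. The labels do not say what a number shares. Deviations of same-numbered arrays correlated above 0.1 in 1 of 4 pairs, and 2 of 8 arrays correlated best with their own number, so the numbers were not taken to pair animals.

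Other turns of sign were among differences that were not called. With age these were GAPDH A_70_P016402 (-0.10), A_70_P016401 (-0.18), SLC2A5 (0.27), ALDOA (-0.03), LDHA (-0.04), G6PC (-0.04) and TXN (0.03). With brightness they were A_70_P016401 (-0.0033), SLC2A4 (0.06), SLC2A5 (0.33), PFKM (0.02), PGD (0.11), PYGM (0.20) and G6PC (-0.04). Slide 1 turned SLC2A5 (0.33), PFKM (0.04), PYGL (0.03), PYGM (0.18), G6PC (-0.22) and PRKAA2 (-0.01). Slide 2 turned A_70_P016402 (-0.09), A_70_P016401 (-0.21), SLC2A1 (-0.03), SLC2A2 (-0.10), SLC2A4 (0.12), LDHA (-0.11), PGD (0.18) and TXN (0.24). The 75th percentile turned PGD (0.14), PYGM (0.13), PCK1 (0.08), G6PC (-0.01) and TXN (0.04), and moved the median of all probes by 0.06. The processed signal turned PGD (0.14), G6PC (-0.03), TXN (0.06) and PRKAA2 (-0.26). Array weights turned A_70_P016401 (-0.05), PGD (0.05) and TXN (0.02). Either the median spot signal or the deposited log2 values turned A_70_P016401 (-0.02) and PGD (0.01), cyclic loess turned PGD (0.06), and PRKAA2 turned without background correction (-0.05) and as a mean of probes (-0.03).

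The correlation of GAPDH with HK1 deviations turned to 0.11 with cyclic loess, 0.36 with the 75th percentile and 0.42 with the processed signal, that of HK1 with VDUP1 to 0.08 and 0.29 with the latter scalings, and that of SLC2A3 with VDUP1 to -0.04 with the 75th percentile. With single arrays left out these correlations ran from -0.43 to 0.26, from -0.76 to 0.07 and from -0.23 to 0.46, and that of HK1 with SLC2A3 from 0.20 to 0.95. Differences that turned there ran from -0.13 to 0.12 for A_70_P016401, -0.01 to 0.27 for SLC2A2, -0.34 to 0.15 for SLC2A4, -0.07 to 0.13 for PGD, -0.08 to 0.05 for PYGM, -0.05 to 0.09 for G6PC, -0.20 to 0.0046 for TXN and -0.01 to 0.06 for PRKAA2.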
